A study of Mus musculus with 12 samples.

Results

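The FAM71 family, now also named GARIN (Golgi-associated RAB2 interactor), was followed through 6 genes in synchronized mouse testis: Fam71a (Garin4), Fam71b (Garin3), Fam71d (Garin2), Fam71e1 (Garin5a), Fam71f1 (Garin1b) and Fam71f2 (Garin1a). The members were chosen by name as a family, after Fam71b and Fam71f1 had been seen high in stages VIII-IX on these same arrays, so the VIII-IX values are a description and support nothing. They were 6 of 19938 genes with a probe set that carries a single gene symbol. The array held 7 symbols of the family, and Fam71e2, which is no member, is given only where it bears on the others.

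RNA of whole testes was read on 12 arrays (Affymetrix Mouse Gene 1.0 ST), whose probes are placed along the length of each transcript. All animals were males of a mixed background 129/C57BL6. All had been given the compound WIN 18,446, which blocks retinoic acid synthesis, at 100 ug per gram of body weight each day from 2 to 8 days post partum. An injection of 200 ug of RA (retinoic acid) followed at 9 days post partum, and testes were taken after 43 to 49 further days. The 6 groups, with 2 samples each, held testes staged by morphology within the seminiferous epithelium cycle. They were stages XII-I, II-IV and IV-VI, then stage VII alone, then stages VIII-IX and stages IX-XI. No untreated group was among them, so each level is set against other stages only. Whether samples of 1 stage group were taken from different animals is not stated, so the p-values measure a spread between samples that may be technical.

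The acrosome is the vesicle over the sperm nucleus that carries the enzymes and receptors for fertilization. Round spermatids build it from vesicles sent out by the Golgi apparatus, and it spreads over the nucleus as the spermatid lengthens. GARIN proteins bind RAB2, a small GTPase of the Golgi, and in mouse FAM71F1 binds RAB2A and RAB2B and is needed for a normal acrosome. FAM71D has been linked to sperm motility in mouse.

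Levels below are log2 of the normalized intensity of 1 probe set per gene, and they are compared between stages of a gene, never between genes. Array medians lay between 297 and 309 in intensity, since the normalization forces the arrays to 1 distribution, and only relative levels can be read. By Pearson correlation over all genes, 3 of 12 arrays were nearest to their partner of the same group and 9 were nearest to an array of another group. IV-VI sample 1 was nearest to VII sample 1 (r = 0.997), and XII-I sample 2 was nearest to II-IV sample 2 (r = 0.998). Marker genes of spermatocytes, round spermatids and elongating spermatids were above the array median on every array, 6 of 6 for each type, as were 4 of 6 spermatogonial markers. The same held for 4 of 5 measured Sertoli cell and 4 of 5 measured Leydig cell markers, 2 of 4 peritubular myoid, 1 of 5 macrophage, 1 of 4 endothelial and 0 of 5 epididymal markers.

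Fam71a and Fam71b swung most over the cycle, Fam71f1 moved less in the same direction, and the group means of Fam71d, Fam71e1 and Fam71f2 spanned at most 1.45-fold. An F test over the 6 groups, made with limma and adjusted over all genes by Benjamini-Hochberg with a threshold of 0.05, called 3 of 6 members against 19.9% of all genes. The called members were Fam71a (adjusted p = 0.017), Fam71b (adjusted p = 0.026) and Fam71f1 (adjusted p = 0.035), of which Fam71b and Fam71f1 were chosen on values that enter this test. Fam71f2 (0.066), Fam71d (0.14) and Fam71e1 (0.45) did not pass by adjusted p. The call of Fam71a held without each of the 12 samples in turn. That of Fam71b was lost without VII sample 2 (adjusted p = 0.051), either VIII-IX sample (0.065 each) or either IX-XI sample (0.065 and 0.059). Of these 12 omissions, the call of Fam71f1 held only for XII-I sample 1 and XII-I sample 2. With sample 2 of both VIII-IX and IX-XI left out, no member passed and 19 genes in all did.

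**Figure D1:**
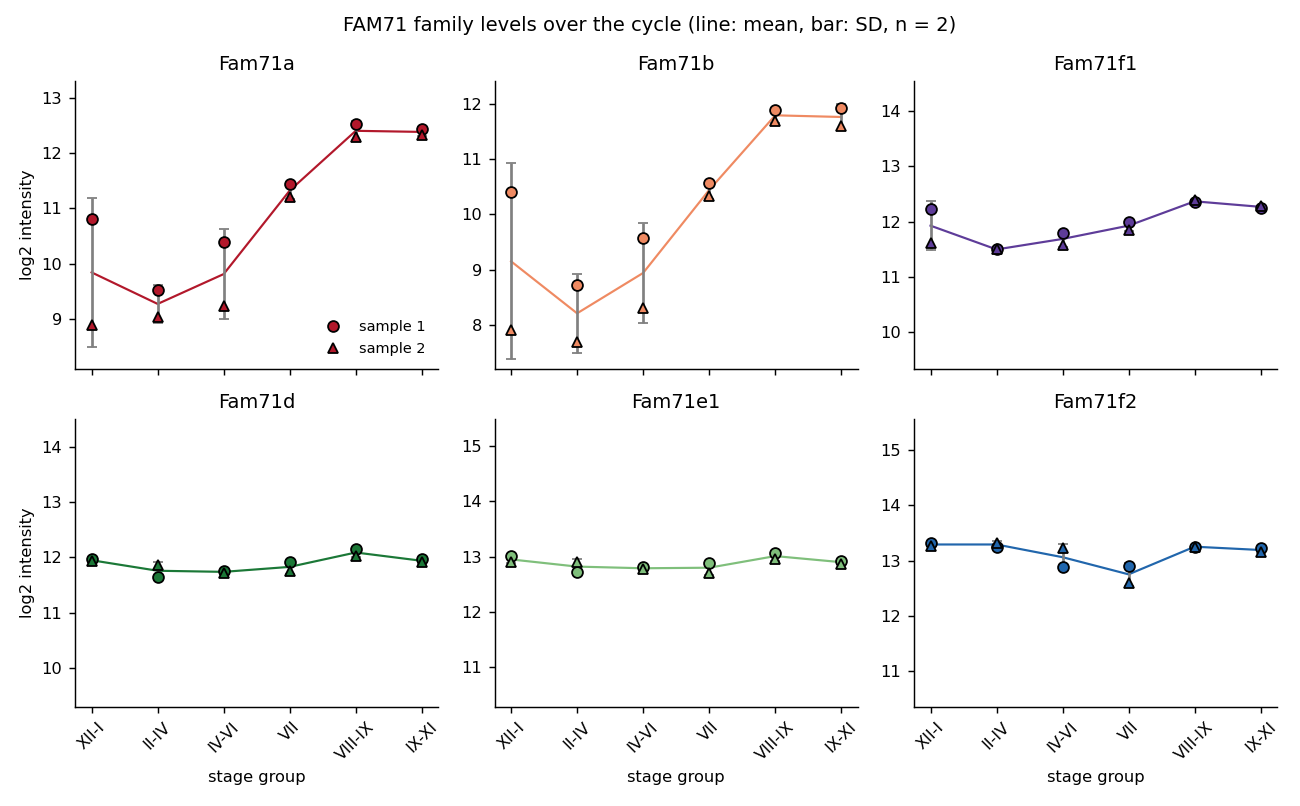
Log2 intensity (vertical axis, the same span in each panel) of the 6 family members in the 6 stage groups (horizontal axis, order of the cycle); circles and triangles are samples 1 and 2, the line joins group means and bars are the SD (n = 2). Fam71a and Fam71b are lowest in II-IV and highest in VIII-IX and IX-XI, Fam71f1 follows over a smaller range, and the other 3 panels are nearly flat.

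Fam71a (Garin4, probe set 10361089) had log2 levels of 10.80 and 8.88 in XII-I, 9.52 and 9.03 in II-IV, 10.39 and 9.23 in IV-VI, 11.43 and 11.21 in VII, 12.52 and 12.28 in VIII-IX, and 12.43 and 12.33 in IX-XI. All 4 samples of VIII-IX and IX-XI stood above the other 8, both VII samples came next, and the 3 earlier groups overlapped one another. The group means ranged over 3.13 log2, an 8.75-fold span between VIII-IX (12.40 ± 0.17, SD, n = 2) and II-IV (9.27 ± 0.35, SD, n = 2). In the order of the means, VIII-IX and IX-XI did not differ beyond their spread, and neither did XII-I, IV-VI and II-IV.

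Fam71b (Garin3, probe set 10375436) had log2 levels of 10.41 and 7.90 in XII-I, 8.72 and 7.69 in II-IV, 9.58 and 8.30 in IV-VI, 10.56 and 10.33 in VII, 11.88 and 11.69 in VIII-IX, and 11.93 and 11.59 in IX-XI. Again the 4 samples of VIII-IX and IX-XI were above the rest, but XII-I sample 1 reached the VII samples. The range of the means was 3.58 log2, or 11.9-fold, between VIII-IX (11.79 ± 0.13, SD, n = 2) and II-IV (8.21 ± 0.72, SD, n = 2). This span ranked 9 among the 19938 genes and that of Fam71a ranked 43, where the median span of all genes was 0.34 log2 and that of the genes called by the F test 0.86 log2.

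Fam71f1 (Garin1b, probe set 10536805), the RAB2 binder needed for acrosome formation, had log2 levels of 12.24 and 11.62 in XII-I, 11.50 and 11.50 in II-IV, 11.80 and 11.58 in IV-VI, 12 and 11.86 in VII, 12.36 and 12.39 in VIII-IX, and 12.25 and 12.28 in IX-XI. Both VIII-IX samples exceeded all others and both II-IV samples were the lowest 2. Its means ranged over 0.88 log2 (1.84-fold), between VIII-IX (12.37 ± 0.02, SD, n = 2) and II-IV (11.50 ± 0.00, SD, n = 2), and the span ranked 2453. XII-I and VII, its neighbours at the middle of the order, did not differ beyond their spread.

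Fam71d (Garin2, probe set 10396767), the member linked to motility, lay between 11.65 in II-IV sample 1 and 12.16 in VIII-IX sample 1. Its highest mean was in VIII-IX (12.09 ± 0.09, SD, n = 2) and its lowest in IV-VI (11.74 ± 0.03, SD, n = 2), a 1.27-fold span. Fam71e1 (Garin5a, probe set 10552689) lay between 12.71 in VII sample 2 and 13.07 in VIII-IX sample 1, and its means spanned 1.16-fold. In the order of the means, groups next to each other overlapped for both genes, the exception being VIII-IX above XII-I for Fam71d. In the order of the cycle, both VIII-IX samples lay above those of VII and IX-XI for both genes. For Fam71d both II-IV samples also lay below those of XII-I. None of these steps of the cycle passed in limma. The span of Fam71d ranked 9727 and that of Fam71e1 15017, at and below the middle of all genes. The genes next to Fam71d on chromosome 12 had wider spans, Gphn of 1.12 log2 (adjusted p = 0.045, r = -0.80 with Fam71d) and Mpp5 of 0.92 log2 (0.012, r = -0.57).

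Fam71f2 (Garin1a, probe set 10536799) had its lowest mean in VII, where the log2 levels were 12.90 and 12.60, against 13.25 and 13.25 in VIII-IX, 13.31 and 13.26 in XII-I, and 13.25 and 13.32 in II-IV. IV-VI sample 1, at 12.88, was also low, whereas its partner was at 13.23. The span between XII-I (13.29 ± 0.03, SD, n = 2) and VII (12.75 ± 0.21, SD, n = 2) was 1.45-fold. Its adjusted p of 0.066 in the F test became 0.043 after a further quantile normalization and 0.032 with a robust variance trend. Fam71f2 passed in only these 2 of 9 alternative settings, and in 0 of 12 omissions of 1 sample.

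**Figure D2:**
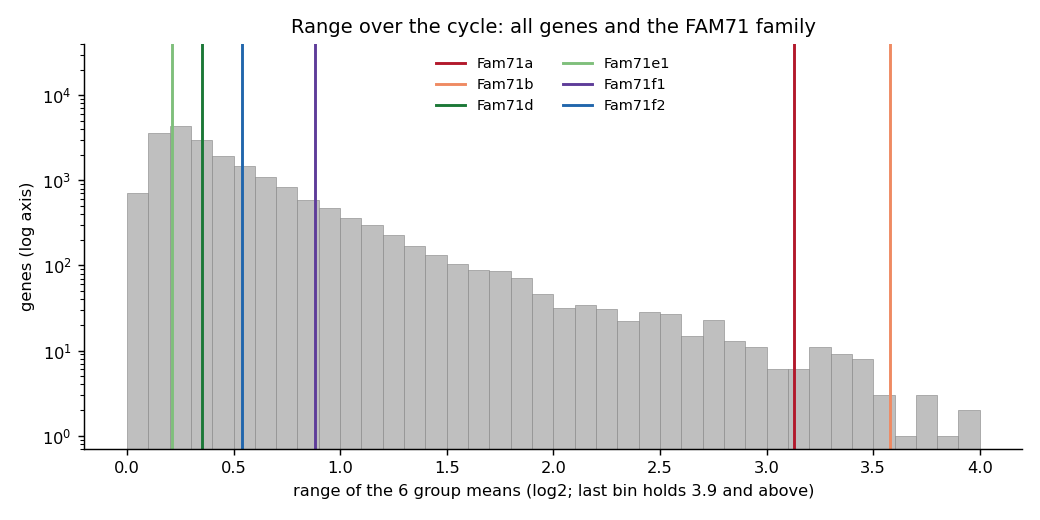
Number of genes (vertical axis, log scale) by the range of their 6 group means (horizontal axis, log2, bins of 0.1), with a vertical line for each family member. Fam71a and Fam71b lie in the far right tail at 3.13 and 3.58, Fam71f1 stands at 0.88, and the other 3 lie between 0.21 and 0.54.

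Set against the mean of the other 5 groups, VIII-IX was higher for all 6 members in the fit. The differences were 1.88 log2 for Fam71a (SE 0.42), 2.08 for Fam71b (SE 0.55), 0.51 for Fam71f1 (SE 0.13), 0.25 for Fam71d, 0.15 for Fam71e1 and 0.14 for Fam71f2. Fam71a (adjusted p = 0.033) and Fam71f1 (0.0497) fell inside the limma threshold and Fam71b (0.0512) fell just outside it, so 2 of 6 members were called higher, where 3.54% of all genes were. These are the values that led to the choice of the family, and nothing is read from that count. Fam71b passed in 4 of 9 alternative settings, among them array medians set equal (0.042) and the fit without the dimmest 30% of genes (0.04). Of the 12 omissions of 1 sample, Fam71b passed only with XII-I sample 1 (2.33 log2) or XII-I sample 2 (1.83 log2) left out. Fam71a did not pass without IV-VI sample 2, VII sample 2, or any 1 sample of VIII-IX and IX-XI (0.052 to 0.22), and of the 12 omissions of 1 sample Fam71f1 passed only with XII-I sample 1 or 2 left out.

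IX-XI was also above the mean of the other groups for Fam71a, by 1.85 log2 (SE 0.42, adjusted p = 0.048). Fam71b differed by 2.06 log2 (SE 0.55, adjusted p = 0.074) and Fam71f1 by 0.38 log2 (SE 0.13, adjusted p = 0.14), and neither passed. Thus 1 of 6 members was called higher, against 1.9% of all genes. The call of Fam71a was lost without any 1 sample of II-IV, VII, VIII-IX or IX-XI, or without IV-VI sample 2 (adjusted p 0.056 to 0.31). Of the 12 omissions of 1 sample, Fam71b passed only without XII-I sample 1 (2.31 log2) or XII-I sample 2 (1.8 log2). Fam71f1 passed only without XII-I sample 1 (0.44 log2). The contrasts of VIII-IX and IX-XI each hold the other group among their references, so they are not independent of each other.

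At the step from IX-XI into XII-I, Fam71a and Fam71b fell. XII-I minus IX-XI was -2.54 log2 for Fam71a (SE 0.54, adjusted p = 0.022) and -2.61 for Fam71b (SE 0.71, adjusted p = 0.045), and 2 of 6 members were called lower, against 4.63% of all genes. Fam71f1 differed by -0.33 log2 (SE 0.17, adjusted p = 0.25). At the next step, II-IV minus XII-I was -0.57 log2 for Fam71a, -0.95 for Fam71b and -0.44 for Fam71f1, with adjusted p of 0.82, 0.72 and 0.5. Without XII-I sample 1 the difference between XII-I and IX-XI was -3.50 log2 for Fam71a and -3.86 for Fam71b, and that of Fam71f1 was -0.64 and passed (adjusted p = 0.022). Without XII-I sample 2 the call of Fam71a (adjusted p = 0.065) and that of Fam71b (0.16) were lost, with differences of -1.58 and -1.36 log2, and leaving out either IX-XI sample also ended both calls. The call of Fam71b was lost as well without any 1 sample of IV-VI, VII or VIII-IX (adjusted p 0.051 to 0.066).

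None of the 5 other steps between neighbouring groups passed for any member with all arrays. VII minus IV-VI was 1.51 log2 for Fam71a (SE 0.54) and 1.5 for Fam71b (SE 0.71), with an adjusted p of 0.83 for each. No gene on the array passed that step in limma, although 1182 genes (5.93%) and 2 of 6 members had an unadjusted p under 0.05. VIII-IX minus VII was 1.09 log2 for Fam71a, 1.34 for Fam71b, 0.45 for Fam71f1 and 0.50 for Fam71f2, with adjusted p between 0.061 and 0.28. For that step 0 of 6 members and 3.93% of all genes passed. Its unadjusted p was under 0.05 for 3 members and for 25.3% of all genes. Fam71f1 passed it without XII-I sample 1 or XII-I sample 2 (adjusted p = 0.034 each, with 8.31% of all genes called), and Fam71f2 without VII sample 1 (0.043, with 5.09%). XII-I against the other groups called 0 of 6 members, against 10.8% of all genes. The unadjusted p of that contrast was under 0.05 for 1 member and for 26.7% of all genes. II-IV lay below the other groups by values of -1.88 log2 for Fam71a, -2.21 for Fam71b and -0.54 for Fam71f1 (adjusted p 0.074 to 0.087). No gene passed that contrast, with 3428 genes (17.2%) and 3 members at an unadjusted p under 0.05. All 3 members passed it without XII-I sample 1 (adjusted p 0.038 to 0.042) and without XII-I sample 2 (0.011 to 0.012), where 1.61% and 6.11% of all genes then passed. The other contrasts (IV-VI and VII against the other groups, II-IV minus XII-I, IV-VI minus II-IV, and IX-XI minus VIII-IX) called no gene in limma. Their unadjusted p was under 0.05 for 3 of 6 members in IV-VI (20.4% of all genes) and for 1 in VII (19.9%). The same held for 1 member in II-IV minus XII-I (9.93%), and for 0 in IV-VI minus II-IV (6.63%) and IX-XI minus VIII-IX (4.64%).

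In XII-I, II-IV and IV-VI the 2 samples of a group differed most for Fam71a and Fam71b. In XII-I, sample 1 exceeded sample 2 by 1.91 log2 for Fam71a (3.77-fold), by 2.5 for Fam71b (5.67-fold) and by 0.62 for Fam71f1. The gap of Fam71a was wider than that of 99.9% of all genes, whose median absolute difference in this group was 0.15 log2. In IV-VI the gaps were 1.15 log2 for Fam71a and 1.29 for Fam71b, 0.22 for Fam71f1 and -0.35 for Fam71f2, against a median of 0.09. In II-IV they were 0.49 for Fam71a, 1.03 for Fam71b, 0.00 for Fam71f1, -0.23 for Fam71d and -0.19 for Fam71e1. In VII the widest was that of Fam71f2, at 0.29, and in VII, VIII-IX and IX-XI no member differed by more than 0.34 log2. Sample 1 was the higher one for both Fam71a and Fam71b in 6 of 6 groups, whereas Fam71f1 and Fam71f2 shared the sign in 2 of 6.

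**Figure D3:**
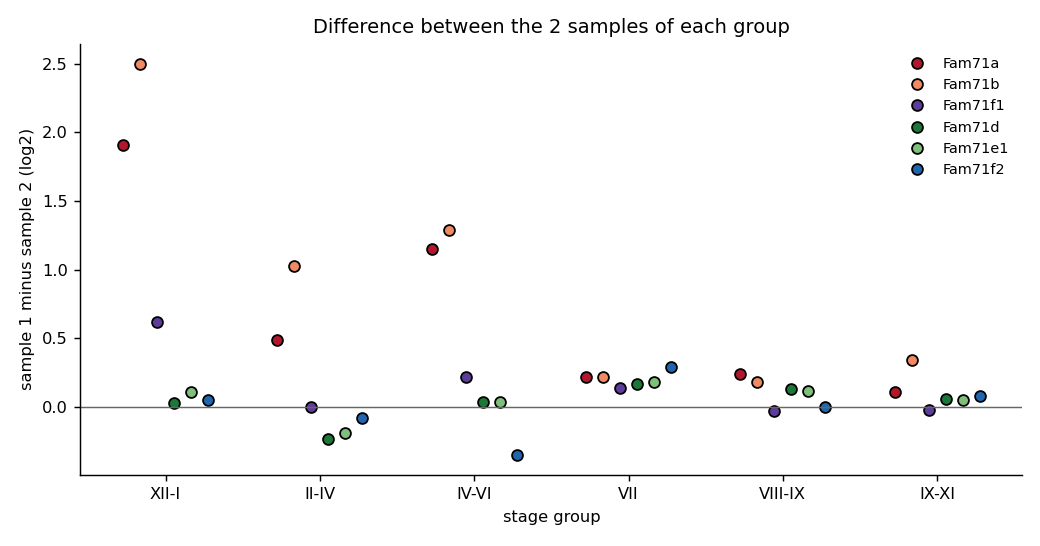
Sample 1 minus sample 2 (vertical axis, log2) in each stage group (horizontal axis), 1 point per family member. The points of Fam71a and Fam71b stand far above 0 in XII-I and IV-VI, at 1.15 to 2.5, and all members lie within 0.34 of 0 in VII, VIII-IX and IX-XI.

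Over the 12 arrays the log2 levels of Fam71a and Fam71b correlated at Pearson r = 0.99, those of Fam71a and Fam71f1 at 0.93 and those of Fam71b and Fam71f1 at 0.95. Fam71d and Fam71e1, with their narrow ranges, correlated at 0.94. Fam71f2 correlated with Fam71a at -0.17 and with Fam71f1 at 0.05. These correlations describe 12 points that share a normalization and come in 6 groups.

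Summed intensity of the elongating spermatid markers was 54456 to 57234 in XII-I, 44529 to 54859 in II-IV, 39266 to 42389 in IV-VI, 44212 to 46715 in VII, 60955 to 62183 in VIII-IX, and 53741 to 57191 in IX-XI. It correlated with Fam71a at r = 0.45 and with Fam71f1 at 0.63 over the 12 arrays. The round spermatid sum was 21106 to 23473 in XII-I, 24599 to 31628 in II-IV, 32696 to 34174 in IV-VI, 31737 to 35104 in VII, 24601 to 28549 in VIII-IX and 28305 to 32151 in IX-XI, and correlated with Fam71a at 0.13. Larger correlations with Fam71a than that of elongating spermatids were those of spermatogonia (0.57, sums 2614 to 3195 over the arrays) and of macrophages (-0.55, sums 1428 to 2592). Leydig cell sums, which correlated with it at -0.36, were 11168 to 11398 in VIII-IX and 8021 to 13288 in IX-XI, and 12601 to 19582 in the other groups. The other types lay between -0.26 (epididymis) and 0.29 (spermatocytes). The part of these cell types in the levels of the family was not tested. Between the samples of XII-I the ratio of the sums, sample 1 over sample 2, was 1.05 for elongating and 0.899 for round spermatids. It was 1.10 for spermatocytes, 1.10 for spermatogonia and 1.12 for Leydig cells, beside the 3.77-fold gap of Fam71a. A sum can hide gaps of its single genes. The round spermatid markers Acrv1 and Spaca1 had an SD of 0.96 and 0.87 log2 in XII-I (n = 2), beside 1.35 for Fam71a. Gaps of the other single markers are not given here. In whole testis, fewer cells of a type and less RNA per cell cannot be told apart.

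The candidates for likeness were 1571 genes whose means also ranged at least 1 log2. Predicted or unnamed genes, olfactory and vomeronasal receptors, small RNAs and the members were left out of them by symbol and not ranked. Among these candidates, the 5 most like Fam71a over the 12 arrays were Hemgn (r = 0.999), Plbd1 (0.993), P2rx2 (0.993), Faiml (0.993) and Lrrc69 (0.992). Those most like Fam71b were Dnajc9 (r = 0.994), Hemgn (0.993), Faiml (0.992), Calr3 (0.992) and Spata31d1c (0.992). Hemgn, known as a nuclear protein of blood-forming cells and also made in testis, spanned 2.59 log2 with its highest mean in IX-XI. Calr3 is a testis calreticulin, a chaperone of the endoplasmic reticulum for sperm surface proteins, and spanned 2.38 log2. Dnajc9 is a co-chaperone that also binds histones, and P2rx2 is an ATP-gated ion channel. Of the 1571 genes, 86 had r over 0.95 with Fam71a. Of all candidates, 3 lay closer to Fam71a than Fam71b did, and 1 lay closer to Fam71b than Fam71a did.

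**Figure D4:**
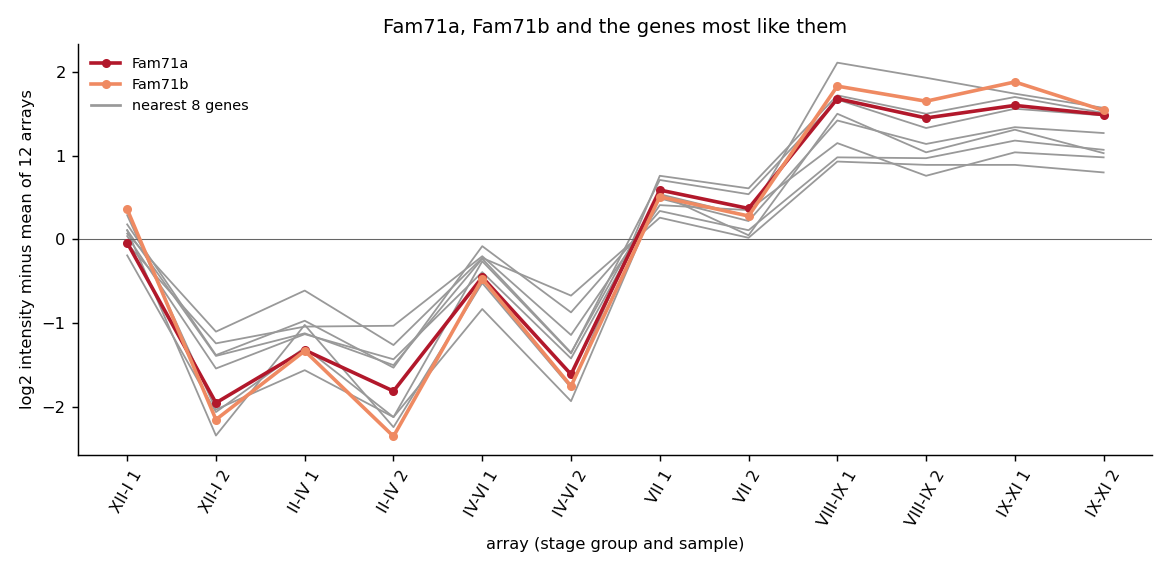
Log2 intensity minus the gene's own mean over 12 arrays (vertical axis) for Fam71a and Fam71b (coloured lines) and the 8 candidate genes most like them (grey lines) on each array (horizontal axis, stage group and sample). All lines share the high point of XII-I sample 1 against its partner, the smaller one of IV-VI sample 1, and the plateau over VIII-IX and IX-XI.

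The promoter windows of Fam71a and Fam71b are shown because these genes moved together most closely. The last 100 bases before the transcript start are given from RefSeq on GRCm38.p6, Fam71a at chr1:191164818-191164917 on the minus strand and Fam71b at chr11:46404628-46404727 on the plus strand. Capitals mark 2 runs that both windows hold in the same order.
Fam71a: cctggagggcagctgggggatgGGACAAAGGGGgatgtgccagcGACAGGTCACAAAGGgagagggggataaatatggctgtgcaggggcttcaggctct
Fam71b: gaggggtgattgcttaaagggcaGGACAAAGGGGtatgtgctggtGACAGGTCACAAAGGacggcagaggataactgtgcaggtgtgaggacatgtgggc

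The longer run has 15 bases and lies 56 to 42 bases before the start of Fam71a and 55 to 41 before that of Fam71b. On either strand it was found in 2 of 32851 promoter windows of 300 bases (250 before and 50 after the start), those of these genes alone. Each run given here was picked because 2 windows of the family share it, so its count could not be below 2. The shorter run, of 11 bases, begins 78 bases before the start of Fam71a and 77 before that of Fam71b, and occurred in 15 windows (0.046%). With the windows set so that the runs coincide, 52 of 100 bases were identical. The promoter of Fam71e2 holds 11 bases of the longer run, from 71 to 61 bases before its start, a stretch present in 25 windows (0.076%). Fam71e2 had its highest mean in VII (12.91 ± 0.06 log2, SD, n = 2) and its lowest in XII-I (12.23 ± 0.14, SD, n = 2), and did not pass the F test (adjusted p = 0.055). Fam71a and Fam71b lie on chromosomes 1 and 11. The genes next to Fam71a, Batf3 and Atf3, spanned 0.26 and 0.28 log2 (adjusted p 0.69 and 0.74), and Med7, next to Fam71b, spanned 0.54 log2 (adjusted p = 0.045) with r = -0.44.

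Fam71f1 and Fam71f2 are neighbours on chromosome 6 whose levels correlated at only 0.05, so their windows are shown for contrast. They lie at chr6:29319040-29319139 and chr6:29281041-29281140, both on the plus strand of GRCm38.p6, and capitals mark the longest run they share.
Fam71f1: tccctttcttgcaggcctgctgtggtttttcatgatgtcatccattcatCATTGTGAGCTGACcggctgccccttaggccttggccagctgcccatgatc
Fam71f2: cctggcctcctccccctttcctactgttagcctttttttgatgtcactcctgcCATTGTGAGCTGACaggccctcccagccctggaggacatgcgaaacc

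This run has 14 bases, 51 to 38 before the start of Fam71f1 and 47 to 34 before that of Fam71f2, and was found in 3 windows (0.009%), the third being that of the predicted gene Gm32946. With the runs aligned, 42 of 100 bases were identical. Of 10 pairs of members, 4 shared a run of at least 10 bases. How often other pairs of windows share such a run was not counted, so no likeness of the family is read from this. The other pairs were Fam71b with Fam71f1 (11 bases, in 9 windows, 0.027%) and Fam71a with Fam71f2 (10 bases, in 58 windows, 0.177%). Those runs lie at unlike distances from the start in the windows that share them. Of these runs only that of 14 bases, shared by Fam71f1 and Fam71f2, holds the letters ACAAT, the SOX core, on its minus strand. The neighbours beyond this pair were Calu (span 0.38 log2, adjusted p = 0.55) and Hilpda (0.60 log2, adjusted p = 0.082, r = 0.68 with Fam71f2).

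The window of Fam71e1, whose level was nearly flat, is shown because it alone among the 5 members with an entry held a full cAMP response element, the motif read in spermatids by CREM. It lies at chr7:44496495-44496594 on the plus strand, and capitals mark TGACGTCA.
Fam71e1: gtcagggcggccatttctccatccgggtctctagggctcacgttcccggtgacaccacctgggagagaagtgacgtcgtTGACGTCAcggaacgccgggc

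The element begins 21 bases before the start and occurs in 1.8% of all windows, and 3 copies of its core TGACG (20.8% of windows), 2 of them inside the element, lie within 30 bases of the start. Fam71e1 overlaps Emc10 and Mybpc2 in the annotation, which spanned 0.41 and 0.34 log2 without passing (adjusted p 0.11 and 0.58). None of the 5 windows held the RFX core GTTGCC (12.5% of windows), the E-box CACGTG (7.2%) or TATAAA (13.6%) on either strand. The MYB core AACTG was found in the windows of Fam71a and Fam71b, 2 sites each (44.8% of windows). The SOX core was found at 2 sites in Fam71a and 1 in each of Fam71e1, Fam71f1 and Fam71f2 (31% of windows). A match is a description of letters and not of binding.

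**Figure D5:**
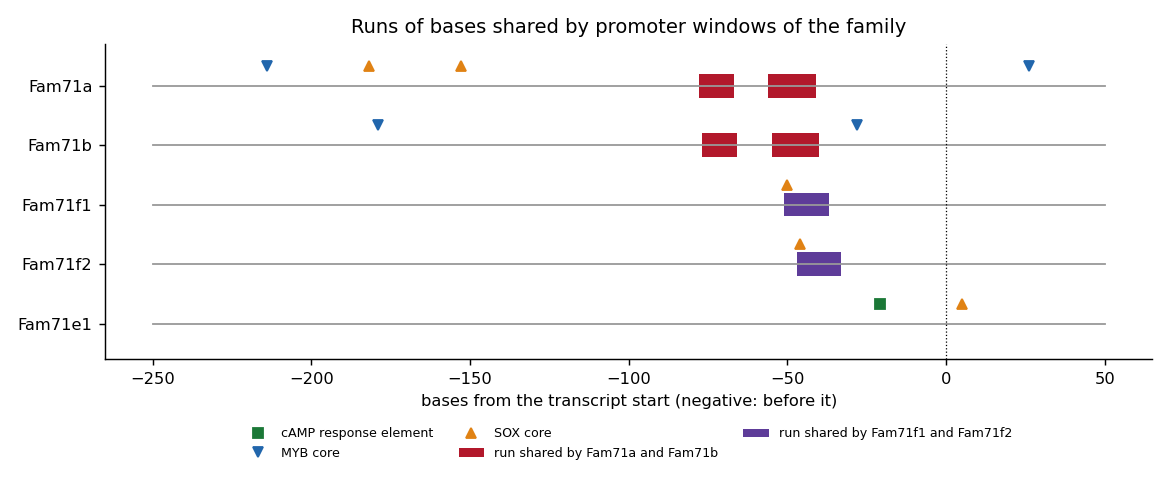
Positions of the runs shared by Fam71a with Fam71b and by Fam71f1 with Fam71f2 (boxes) and motif letters (symbols, placed at the first base) in the 300-base promoter windows of 5 family members, by bases from the transcript start (horizontal axis, 0 is the start). The 2 boxes of Fam71a and Fam71b lie at nearly the same distance from the start, as do those of Fam71f1 and Fam71f2.

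The genes of RAB2, the partner of the family, had narrower spans than Fam71a and Fam71b. Rab2a spanned 0.17 log2 (1.13-fold, adjusted p = 0.75). Rab2b had its highest mean in XII-I (10 ± 0.13 log2, SD, n = 2) and its lowest in IX-XI (9.36 ± 0.13, SD, n = 2), 1.56-fold with an adjusted p of 0.028. Of 33 RAB2 and Golgi trafficking genes, 8 passed the F test (24.2%), with a median span of 0.40 log2. Of these 8, 6 were highest in XII-I, 1 in II-IV, 1 in IV-VI and none in VIII-IX or IX-XI. The widest were Ykt6, a SNARE of the Golgi (1.96-fold, highest in XII-I, adjusted p = 0.015), Rab30, a Golgi small GTPase (1.72-fold, highest in IV-VI, 0.031) and the tether Golgb1, or giantin (1.59-fold, highest in XII-I, 0.021). The group of the highest mean was not counted over all genes called by the F test. No timing is therefore read from such counts for this list or for those below.

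Of 31 acrosome genes, 9 passed (29%), with a median span of 0.69 log2. They were highest in IV-VI for 5, in XII-I for 2 and in VIII-IX for 2. Spam1, the sperm surface hyaluronidase, spanned 17.8-fold with its peak in IV-VI and its lowest mean in VIII-IX (adjusted p = 0.019), and Lyzl6, a lysozyme-like protein, spanned 5.21-fold with its peak in IV-VI (0.047). Spaca4, a membrane protein of the acrosome, spanned 3.43-fold, again with its peak in IV-VI (0.04). Of 24 measured genes of head shaping and the manchette, 8 passed (33.3%), 6 of them highest in XII-I and 2 in IV-VI. Sun5, which anchors the tail to the head (4.0-fold), and Spag6, an axonemal protein (3.73-fold), were highest in IV-VI, and the motor Kif3b (1.71-fold) in XII-I.

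Of 13 measured genes of nuclear condensation, 3 passed (23.1%), and these were highest in VIII-IX or IX-XI. Tnp1 and Tnp2, small basic proteins that stand in for histones before protamines, spanned 7.01-fold (adjusted p = 0.03) and 3.54-fold (0.026) with their highest means in VIII-IX, and both are also among the elongating spermatid markers. Camk4, a kinase of spermatid chromatin remodelling, spanned 1.67-fold and was highest in IX-XI (0.048). Beside these lists stands the median span of 0.34 log2 over all genes and the 19.9% called by the F test.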

How the data were processed

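Per the submitters' processing notes, the authors processed the arrays with RMA (version not given in the sources used here), and the deposited values are linear intensity per probe set, from 24.97 to 21760. Here log2 of the deposited intensity was taken with no pseudocount. Probe sets were named from the platform annotation: of 28853, 21789 had 1 symbol, 1621 had several and 5443 were not listed. The brightest single-symbol probe set stood for each gene, 999 genes having several, which gave 19938 genes. limma 3.58.1 in R 4.3.3 fitted all 12 arrays with 6 group means (6 residual degrees of freedom, empirical Bayes), and p-values were adjusted over all genes by Benjamini-Hochberg with a threshold of 0.05. The fit was tested on simulated data. The number of arrays limits the precision.

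The members, gene lists and markers were chosen with earlier results of these data known. All members were named, with the 5 genes most correlated with each member spanning at least 1 log2 and, of each list, the 3 widest among those past the F test. Symbols of predicted or unnamed genes, olfactory and vomeronasal receptors and small RNAs were left out of the correlation ranking. Rab2a, Rab2b and Fam71e2 were named as the partners and the other relative of the family, and genes next to the members by position. Sample numbers of the labels were not treated as pairs: the correlation of deviations between groups of the same number ran from -0.35 to 0.54, and 7 of 15 exceeded 0.1. Promoter windows and gene neighbours came from RefSeq (GRCm38.p6). Fam71d had no entry among the windows. The search for shared runs of at least 10 bases on the same strand was made after the values were seen. No label names the build of the array annotation, and no probe coordinates are printed. Python 3.11.15, pandas 2.3.3 and matplotlib 3.10.9 were used.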

Additional observations from a re-analysis of the deposited data

How the results depend on the processing

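With 2 samples a group and 6 residual degrees of freedom, calls near the threshold moved with single samples, and where a group kept 1 sample that sample was assumed to vary like the other groups. No called difference of a member changed sign. Leaving out each sample in turn, the members called by the F test numbered 1 to 3. The range was 0 to 3 for II-IV, for IV-VI, for VIII-IX and for IX-XI against the other groups and for XII-I minus IX-XI, and 0 to 1 for VII against the other groups and for VIII-IX minus VII. The genes called under the same omissions numbered 1517 to 4269 by the F test (3974 with all arrays), 0 to 2714 for VIII-IX (1564), 0 to 1265 for IX-XI (736), 11 to 2770 for XII-I minus IX-XI (2385), 0 to 1218 for II-IV (0), 0 to 1381 for IV-VI (0), 0 to 981 for VII (0) and 0 to 1678 for VIII-IX minus VII (784). The replicate block, with the sample number of the labels as a block, called 3 members in II-IV (750 genes), 1 in XII-I (2511 genes) and 2 in IX-XI (1166 genes), and these numbers do not pair the samples. Array weights called 1 member in IV-VI (3034 genes), 0 in VIII-IX (386 genes) and 3 in IX-XI (2426 genes). Both samples of a group had the same weight, from 0.69 in II-IV and VIII-IX to 1.93 in IV-VI. That setting thus weighted whole groups and could not mark out a single array. A robust variance trend called 0 members in IX-XI, 1 in XII-I minus IX-XI (2394 genes) and 1 in VIII-IX minus VII (1024 genes). With sample 2 of both VIII-IX and IX-XI left out, 0 members passed the F test (19 genes), VIII-IX (36 genes), IX-XI (0 genes) and XII-I minus IX-XI (0 genes). Without XII-I sample 1 and IV-VI sample 1 together, an alternative chosen after seeing the data, the members called were 1 in XII-I (68 genes), 3 in II-IV (203 genes), 1 in IV-VI (28 genes), 3 in IX-XI, 1 in VII minus IV-VI (29 genes) and 2 in VIII-IX minus VII (783 genes). The genes called were then 1676 by the F test, 1175 in IX-XI and 1231 in XII-I minus IX-XI.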
